A study of Mus musculus with 2 samples.

Results

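The LIF receptor, JAK and STAT3 pathway was followed in mouse embryonic stem cells (mESCs) through 10 genes chosen by their names: the cytokine Lif, the receptor chains Lifr and Il6st, the kinases Jak1 and Jak2, the transcription factor Stat3, its targets Socs3, Pim1 and Pim3, and the phosphatase gene Ptpn11. All 10 were among the 18888 genes of the table, and all 10 belonged to the 12263 genes that reached 1 FPKM (fragments per kilobase of transcript, scaled to the mapped reads of the library) in at least 1 library. Their values were set between PB mESCs, which carried the empty PiggyBac vector, and PB-TERRA mESCs, in which the same vector expressed polyadenylated TERRA. TERRA is the noncoding RNA transcribed from telomeric repeats. Both groups were 46C mESCs, a mouse line with a GFP reporter in the Sox1 gene, at passages 21 to 24. They were grown on gelatin in conventional mESC medium, which is not described further for these libraries. The paper names medium with serum and LIF as the basal medium of this line, and it also kept PB-TERRA cells in serum-free medium with inhibitors. Each condition was sequenced as 1 library, so no comparison has a replicate check and no p-value is given. Neither the promoter that drove TERRA nor whether a culture grew from 1 clone is given in the sources used here. The level of TERRA itself was not analysed here.

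Leukaemia inhibitory factor (LIF) is the cytokine that keeps mESCs undifferentiated in serum. It binds LIFR, which pairs with the shared receptor chain gp130, the product of Il6st, and the receptor activates kinases of the JAK family. These phosphorylate STAT3, which enters the nucleus and switches on genes of the naive pluripotent state together with Socs3 and the PIM kinases. SOCS3 feeds back on the receptor and the JAKs, while SHP2, the product of Ptpn11, binds the same receptor and feeds the RAS and MAP kinase branch. STAT3 acts through its phosphorylation, which RNA levels do not measure.

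STAT3 dimers bind the palindrome TTCNNNGAA, which reads the same on both strands. This motif was looked for in the 250 bases before each RefSeq gene start (mouse build GRCm38.p6), for which all 10 genes had an entry and 12 promoters were available. It was found in 1 of these 12, that of Socs3, which is printed because Socs3 had the lowest log2 ratio of the 10 genes and is the gene best known as a STAT3 feedback target. The motif was present in 2306 of 32851 promoters of the same length (7.02%). A match is only a description of the sequence, and its absence says only that these letters are not in this window. In the Socs3 promoter, at chr11:117969367-117969616 on the minus strand, the motif (capitals) begins at position -154, counted from the gene start:

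Socs3: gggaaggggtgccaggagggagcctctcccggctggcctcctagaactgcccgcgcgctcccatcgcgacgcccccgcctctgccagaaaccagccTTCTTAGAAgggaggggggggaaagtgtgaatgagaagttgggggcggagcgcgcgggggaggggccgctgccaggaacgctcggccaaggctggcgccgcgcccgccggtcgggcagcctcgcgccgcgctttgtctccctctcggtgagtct

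Among related genes described after the 10, the motif lay in 4 of 75 promoters (5.33%) of the 50 genes with an entry. These were Irf1, Sgk1, Gab1 and Akt2, named after their values were seen. The window around the motif of Irf1, at chr11:53769909-53769947 on the plus strand and with the motif (capitals) beginning at -90, is shown because Irf1 had one of the lowest log2 ratios among those genes:

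Irf1: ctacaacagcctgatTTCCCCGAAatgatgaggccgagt

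The libraries were of like depth, with an estimated 24802981 reads over genes in PB and 24933826 in PB-TERRA. All 8 mESC markers, Pou5f1, Sox2 and Nanog among them, passed the filter, at 128 to 1160 FPKM in PB and 141 to 1040 FPKM in PB-TERRA. Their summed level went from 3250 to 3100 FPKM, with 3 higher and 5 lower. Markers of other cell types were low, and more of them were higher than lower in PB-TERRA. Their summed level went from 27.8 to 35.2 FPKM for 8 fibroblast markers (5 higher, 3 lower), from 9.12 to 12.8 FPKM for 6 primitive endoderm markers (6 higher) and from 15.6 to 19.2 FPKM for 6 trophoblast markers (6 higher). Past the filter were 4 of the fibroblast, 4 of the primitive endoderm and 4 of the trophoblast markers. Of these, Col1a2 and Pdgfra reached the filter only in PB-TERRA. The 95% counting interval of the log2 ratio covers counting error only. It lay above 0 for 4, 4 and 2 of the markers in these lists, with Col3a1 and Foxa2 among them under the filter, and below 0 for none. For the mESC markers it lay above 0 for 3 and below 0 for 4. Of all genes past the filter it lay above 0 for 18.1% and below 0 for 17.6%. No marker of any list was at the table's floor of 0.01 FPKM, but Lum and Postn lay at 0.04 to 0.08 FPKM and Elf5 at 0.02 and 0.06 FPKM. The part of these cells in the results was not tested. In bulk RNA, fewer cells of a type and less RNA per cell cannot be told apart.

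The transcripts of the pathway were at nearly the same level in PB and PB-TERRA. The log2 ratio, PB-TERRA over PB on the scale of FPKM + 0.1, ran from -0.099 for Socs3 to 0.080 for Ptpn11, with a median of 0.029. It was above 0 for 6 genes and below 0 for 4. The median was 0.067 with equal sums of FPKM, and it turned to -0.0063, with 5 higher and 5 lower, once the trend of the ratio over gene length was taken off. None of the 10 reached a 1.2-fold difference (a log2 ratio of 0.263), which 906 of the 12263 genes (7.39%) reached upward and 1094 (8.92%) downward, and none reached 2-fold, which 112 genes (0.913%) reached in either direction. The median over all 12263 genes was -0.0044. Set against these shares, a count of 0 among 10 genes does not set the pathway apart.

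**Figure D1:**
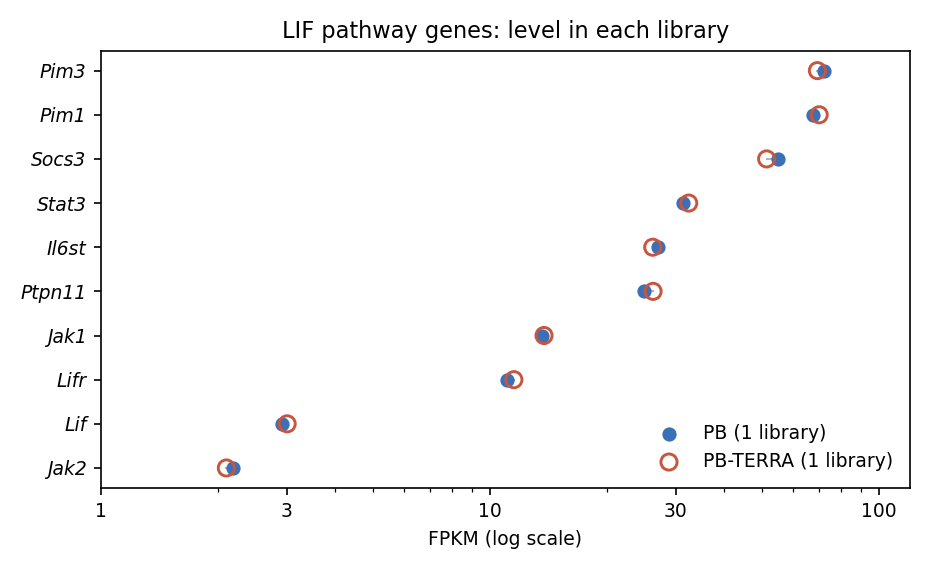
Level of the 10 LIF pathway genes in the PB library (filled) and the PB-TERRA library (open), as FPKM on a log axis, 1 library per condition. The genes span from about 2 FPKM for Jak2 to about 70 FPKM for Pim1 and Pim3, and both circles lie close together for every gene.

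The counting error of each ratio was taken from reads estimated for each gene, as an exact 95% interval of the log2 ratio. This interval covers counting error only, since reads amplified by PCR are not independent molecules, and it compares these libraries, not the conditions. It lay above 0 for 2225 genes (18.1%) and below 0 for 2162 genes (17.6%) of the 12263. Among the 10 genes it lay above 0 for 1, Ptpn11, and below 0 for 1, Socs3, and it held 0 for the other 8, again close to the background shares. The sides depended on the scaling. With both columns set to the same sum of FPKM, which adds 0.038 to every ratio, the interval lay above 0 for 4 of the 10 (Lifr, Stat3, Pim1 and Ptpn11) and below 0 for none, and over all genes the split moved from 2225 above and 2162 below to 3066 and 1513. The split past 1.2-fold moved likewise, from 906 higher and 1094 lower to 1195 and 880.

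**Figure D2:**
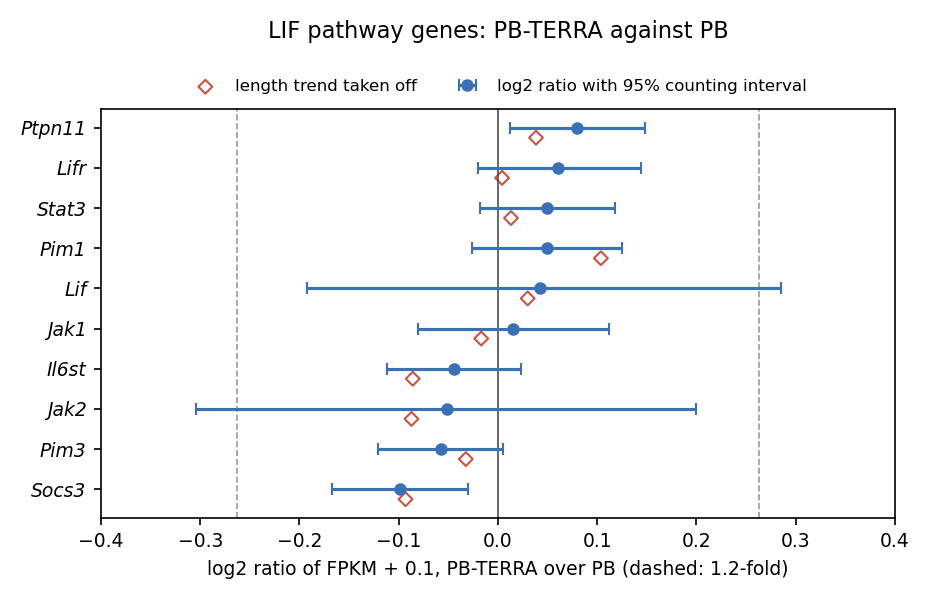
Log2 ratio of FPKM + 0.1, PB-TERRA over PB, for the 10 genes, with the exact 95% counting interval (bars) and the ratio after the median of genes of like length was taken off (diamonds). Dashed lines mark 1.2-fold, which no gene reaches, and the widest bars are those of Lif and Jak2, the genes with the fewest reads.

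Lif, the ligand itself, was a low transcript of these mESCs. Its level was 2.92 FPKM in PB (286 reads) and 3.01 FPKM in PB-TERRA (297 reads), a log2 ratio of 0.042 (95% counting interval -0.19 to 0.29). The interval held 0 and reached just past 1.2-fold upward, but not 1.2-fold downward. The value is the RNA of the cells, separate from any LIF protein supplied with the medium.

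Of the receptor chains, Lifr, the chain specific to LIF and its closest relatives, stood at 11.04 FPKM in PB (2353 reads) and 11.52 FPKM in PB-TERRA (2470 reads). The log2 ratio was 0.061 (-0.020 to 0.14), 4.35% higher in PB-TERRA. Il6st, which encodes the signalling chain gp130 shared by the IL-6 family, had 27.03 FPKM in PB (3579 reads) and 26.21 FPKM in PB-TERRA (3490 reads), a log2 ratio of -0.044 (-0.11 to 0.023). The receptor chains thus lay on opposite sides of 0 with both intervals across it. The level of Il6st was 2.45 times that of Lifr in PB and 2.28 times in PB-TERRA, compared per length. With the trend of the ratio over gene length taken off, the Il6st ratio was -0.086 and its interval (-0.15 to -0.018) no longer held 0, while that of Lifr was 0.0042.

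The kinases were expressed unequally and differed little between the libraries. Jak1, the kinase through which gp130 mainly signals, was at 13.62 FPKM in PB (1752 reads) and 13.77 FPKM in PB-TERRA (1781 reads). Its log2 ratio of 0.016 (-0.080 to 0.11) was the smallest of the 10, and 91.5% of genes at a like level of expression (the same of 10 bins by mean FPKM) differed by as much or more. It was also the only one of the 10 whose sign changed with the processing, to -0.017 once the length trend was taken off. Jak2 was the lowest of the 10 genes, at 2.18 FPKM in PB (267 reads) and 2.10 FPKM in PB-TERRA (259 reads), a log2 ratio of -0.052 (-0.30 to 0.20). The interval was wide and reached past 1.2-fold downward, with few reads behind it. Jak1 exceeded Jak2 6.25 times in PB and 6.56 times in PB-TERRA.

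Stat3, the transcription factor that all of these proteins lead to, was at 31.33 FPKM in PB (3422 reads) and 32.43 FPKM in PB-TERRA (3562 reads). The log2 ratio was 0.050 (-0.018 to 0.12), 3.51% higher in PB-TERRA, and 67.0% of genes at a like level differed by at least as much. The interval held 0.

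Socs3, the feedback inhibitor that STAT3 induces and whose promoter is printed above, was at 55.07 FPKM in PB (3589 reads) and 51.43 FPKM in PB-TERRA (3371 reads). This was lower by 6.61% in PB-TERRA, a log2 ratio of -0.099 (-0.17 to -0.030). The interval lay below 0, and it did so as well with the length trend taken off (-0.16 to -0.025) and at the 99% level (-0.19 to -0.0090), but with equal sums of FPKM it ran from -0.13 to 0.0077. Of the genes at a like level, 41.1% differed by at least this much, the lowest such share among the 10 genes but not a rare one. The quotient of Socs3 to Stat3 was 1.76 in PB and 1.59 in PB-TERRA.

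Pim1 and Pim3, serine/threonine kinases that favour survival and self-renewal, were the most abundant of the 10 transcripts. Pim1 was at 67.85 FPKM in PB (2784 reads) and 70.20 FPKM in PB-TERRA (2897 reads), a log2 ratio of 0.049 (-0.026 to 0.12). Pim3 was at 72.28 FPKM in PB (4132 reads) and 69.47 FPKM in PB-TERRA (3993 reads), a log2 ratio of -0.057 (-0.12 to 0.0056). The STAT3 targets among the 10 genes did not share a direction. Pim1 was the shortest transcript of the 10, at 1769 bases, and its ratio with the length trend taken off was 0.10 (0.028 to 0.18), with an interval above 0.

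Ptpn11, which encodes the phosphatase SHP2, had the highest ratio. It was at 24.84 FPKM in PB (3394 reads) and 26.26 FPKM in PB-TERRA (3609 reads), 5.72% higher in PB-TERRA, with a log2 ratio of 0.080 (0.012 to 0.15). The interval lay above 0 but held 0 with the length trend taken off (-0.029 to 0.11) and at the 99% level (-0.0088 to 0.17). At its level of expression, 52.5% of genes differed by at least as much.

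The order of the 10 levels, compared per length, was close to the same in both libraries. In PB it ran from Pim3 through Pim1, Socs3, Stat3, Il6st, Ptpn11, Jak1, Lifr and Lif down to Jak2. In PB-TERRA, Pim1 passed Pim3 (70.20 against 69.47 FPKM) and Ptpn11 passed Il6st (26.26 against 26.21 FPKM). With 1 library each, the spread of neighbours in this order over cultures is unknown, and these changes of place have no replicate check. The highest of the 10 exceeded the lowest 33.2 times in PB and 33.4 times in PB-TERRA.

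**Figure D3:**
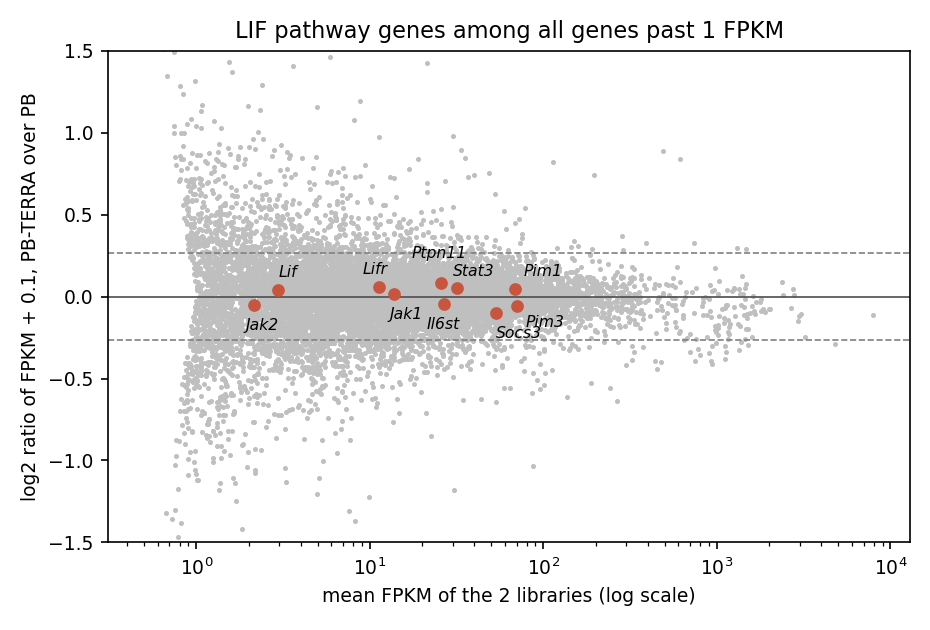
Log2 ratio of FPKM + 0.1, PB-TERRA over PB, against the mean FPKM of both libraries (log axis) for the genes past the filter (grey), with the 10 LIF pathway genes in red and dashed lines at 1.2-fold. The 10 genes lie inside the band between the dashed lines, and 50 grey genes beyond 1.5 on the vertical axis are not drawn.

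The genes around the pathway were described through 5 lists by role, which held 71 genes, none of them among the 10. Of these, 70 were in the table and 63 passed the filter, of which 29 were higher in PB-TERRA and 34 lower, with a median log2 ratio of -0.017. Past 1.2-fold there were 4 higher and 6 lower, beside 7.39% and 8.92% of all genes, and past 2-fold there were none. Of the 4 higher, Il6ra reached the filter only in PB-TERRA. With a pseudocount of 1 FPKM there were 2 higher and 6 lower past 1.2-fold. The counting interval lay above 0 for 14 and below 0 for 13 of the 63, near the 18.1% and 17.6% of all genes. The sign of this median turned with the scaling, to 0.021 with equal sums of FPKM.

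**Figure D4:**
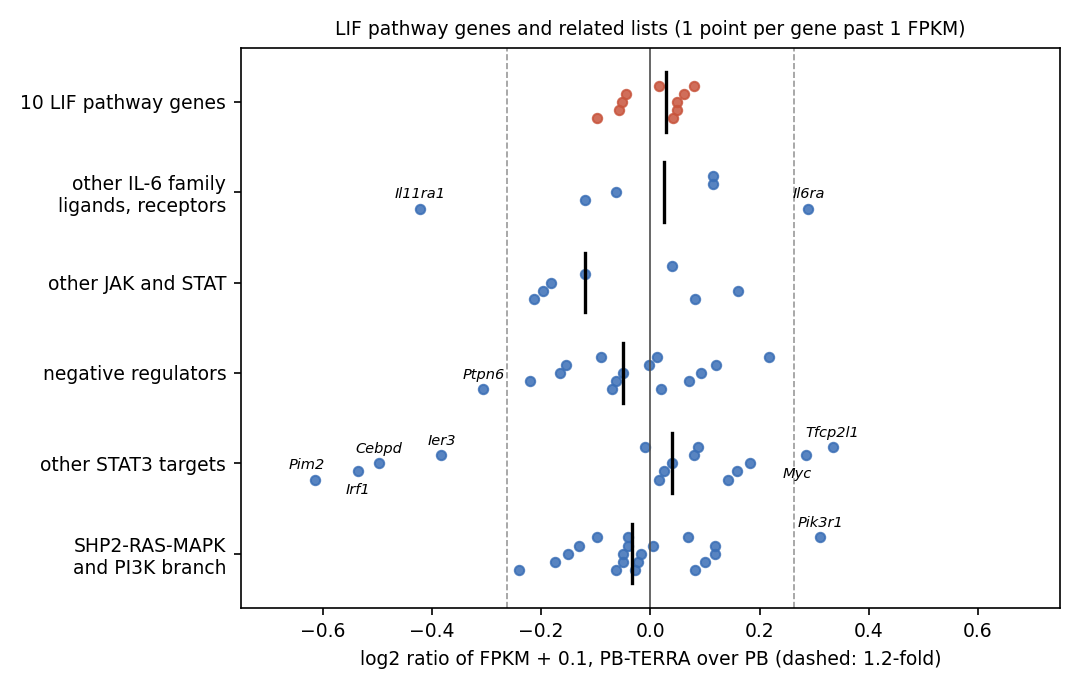
Log2 ratio of FPKM + 0.1, PB-TERRA over PB, for the 10 LIF pathway genes (red) and for the genes of 5 related lists that passed the filter (blue), with black bars at the medians and dashed lines at 1.2-fold. The names mark the 10 list genes past 1.2-fold, of which 6 belong to the other STAT3 targets.

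Other STAT3 targets of mESCs held the widest differences. All 15 passed the filter, 10 higher and 5 lower, with a median of 0.039. Past 1.2-fold, 2 were higher and 4 lower, beside 7.39% and 8.92% of all genes. The interval lay above 0 for 7 and below 0 for 4, beside 18.1% and 17.6% of all genes. The 4 below 0 were Pim2, Irf1, Cebpd and Ier3. Pim2, the PIM kinase not among the 10 genes, was at 165.77 FPKM in PB (7975 reads) and 108.25 FPKM in PB-TERRA (5237 reads), a log2 ratio of -0.61 (-0.67 to -0.56). At this level of expression, 0.815% of genes differed by as much, and its interval did not overlap those of Pim1 and Pim3. Irf1, an interferon regulatory factor whose motif window is printed above, went from 21.14 to 14.55 FPKM (1067 and 739 reads), a log2 ratio of -0.54 (-0.68 to -0.40) that 0.734% of genes at its level reached. Cebpd, a bZIP transcription factor, was at 3.95 and 2.77 FPKM (210 and 148 reads, log2 ratio -0.50, -0.83 to -0.20). Ier3, an immediate early gene, was at 12.95 and 9.91 FPKM (313 and 241 reads, log2 ratio -0.38, -0.63 to -0.14).

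The 7 targets with an interval above 0 were Tfcp2l1, Myc, Klf5, Gbx2, Mcl1, Bcl3 and Sgk1, of which those short of 1.2-fold other than Klf5 were named after their values were seen. Tfcp2l1, a STAT3 target that sustains self-renewal, was at 27.02 FPKM in PB (6147 reads) and 34.08 FPKM in PB-TERRA (7797 reads), a log2 ratio of 0.33 (0.29 to 0.38), as large as that of 3.10% of genes at its level. Myc was at 56.25 and 68.55 FPKM (3186 and 3905 reads, log2 ratio 0.28, 0.22 to 0.35). Klf5, the most abundant of this list by the mean of both libraries, was at 154.17 and 175.02 FPKM, short of 1.2-fold, with a log2 ratio of 0.18 (0.13 to 0.23). Tfcp2l1, Klf5 and Myc are also among pluripotency genes that the study showed for these same samples, as are Stat3, Socs3, Pim1 and Pim3, so their direction is not independent evidence. The counts of 2 higher and 4 lower past 1.2-fold were the same under each of the 6 other scalings, pseudocounts and corrections.

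The other ligands and receptor chains of the IL-6 family were low in these mESCs. Of 12 listed genes, 11 were in the table and 6 passed the filter, 3 higher and 3 lower, with a median of 0.026. Each interval held 0, while it lay above 0 for 18.1% and below 0 for 17.6% of all genes. Osm, Osmr, Il11, Il27ra and Clcf1 were under 1 FPKM in both libraries. Cntfr, the receptor chain for ciliary neurotrophic factor, was the most abundant at 24.97 and 23.90 FPKM, a log2 ratio of -0.063 (-0.18 to 0.055). Il6ra, the IL-6 binding chain, was at 0.80 and 1.0 FPKM (65 and 81 reads, log2 ratio 0.29, -0.18 to 0.80). Il11ra1, the IL-11 binding chain, was at 2.31 and 1.70 FPKM (94 and 70 reads, log2 ratio -0.42, -0.90 to 0.028). Its value is uncertain because reads could be shared with similar copies, of which Il11ra2 and Gm2002 were each at 0.05 and 0.03 FPKM. Il6ra and Il11ra1 were the genes past 1.2-fold, 1 higher and 1 lower, beside 7.39% and 8.92% of all genes. Both had few reads and an interval across 0, and with a pseudocount of 1 FPKM Il6ra was no longer past this mark. Il6ra reached the filter only in PB-TERRA, the library where it was higher, so its count as a higher gene is not independent of the filter.

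The other JAK and STAT genes had the lowest median of the 5 lists. Of 8 listed genes, 7 passed the filter, with Stat5a below it, 3 of them higher and 4 lower, with a median of -0.12. None was past 1.2-fold, beside 7.39% of all genes higher and 8.92% lower. The median kept its sign under each alternative. Stat6, the most abundant, was at 17.91 and 18.95 FPKM, a log2 ratio of 0.081 (-0.045 to 0.21). The interval lay below 0 for 2 genes, named after their values were seen, and above 0 for none, beside 17.6% and 18.1% of all genes. These were Stat2, which acts in type I interferon signalling, at 5.37 and 4.62 FPKM (log2 ratio -0.21, -0.39 to -0.042), and Jak3, the kinase of the common gamma chain receptors, at 9.99 and 8.79 FPKM (log2 ratio -0.18, -0.31 to -0.058).

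The negative regulators, namely the other SOCS genes, Cish, the PIAS genes, phosphatases and Sh2b3, were spread on both sides. All 15 passed the filter, 6 higher and 9 lower, with a median of -0.050, and the interval lay above 0 for 2, Pias2 and Pias3, and below 0 for 2, Ptpn1 and Ptpn6, beside 18.1% and 17.6% of all genes. Ptpn6, which encodes SHP1, the relative of SHP2 known as an inhibitor of JAK signalling in blood cells, was the only one past 1.2-fold, a mark that 7.39% of all genes passed upward and 8.92% downward. It was at 7.70 and 6.21 FPKM (402 and 326 reads, log2 ratio -0.31, -0.53 to -0.096). Pias2, a SUMO ligase and the most abundant, was at 62.87 and 68.33 FPKM, a log2 ratio of 0.12 (0.066 to 0.17). Named after their values were seen, Pias3, an inhibitor of STAT3, was at 10.81 and 12.59 FPKM (log2 ratio 0.22, 0.083 to 0.36), and Ptpn1, a phosphatase of JAK2, was at 17.67 and 15.74 FPKM (log2 ratio -0.17, -0.27 to -0.070).

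Of the branch that SHP2 feeds, from adaptors through RAS to the MAP kinases and PI3 kinase, 20 of 21 genes passed the filter and Gab2 did not. There were 7 higher and 13 lower, with a median of -0.034 that became 0.0035, with 10 higher and 10 lower, when the columns had equal sums of FPKM. The interval lay above 0 for 5 and below 0 for 5, beside 18.1% and 17.6% of all genes. Those below 0 included, named after their values were seen, Map2k1 (log2 ratio -0.18, -0.26 to -0.096), Map2k2 (-0.098, -0.18 to -0.016), Mapk3 (-0.15, -0.23 to -0.066) and Pik3r2 (-0.24, -0.35 to -0.13). Those above 0 included, named likewise, Grb2 (0.12, 0.037 to 0.20), Sos1 (0.10, 0.011 to 0.19), Braf (0.12, 0.049 to 0.19) and Pik3r1. With the length trend taken off, the ratio of Braf was 0.040 and that of Sos1 0.044, and both intervals then held 0. With equal sums of FPKM, which adds 0.038 to every ratio, the interval of Map2k2 held 0. Gab1, an adaptor that binds SHP2 and the most abundant gene of this branch, was level at 129.89 and 130.35 FPKM, a log2 ratio of 0.0051 (-0.030 to 0.040). Pik3r1, a regulatory subunit of PI3 kinase, was the only gene past 1.2-fold, beside 7.39% of all genes higher and 8.92% lower. It was at 1.85 and 2.32 FPKM (313 and 394 reads, log2 ratio 0.31, 0.11 to 0.54), and with a pseudocount of 1 FPKM no gene of the branch was past this mark.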

How the data were processed

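The authors made 1 library per condition from total RNA of 46C mESCs (TruSeq RNA v2 kit, BGISEQ500), and both libraries were used. The submitters' processing notes name HISAT, Cufflinks and mm9. The annotation is not given in the sources used here. The authors deposited 1 table whose expression columns name no unit and were read as FPKM from their values, rounded to 2 decimals with a floor of 0.01. Its gene length column was also used. Its columns of the authors' log2 fold change, p-value and adjusted p-value were not used. The kit does not mark strand, so reads from overlapping antisense genes cannot be told apart.

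Members and lists were chosen with earlier results of these data known. The log2 ratio was taken of FPKM + 0.1, for genes with at least 1 FPKM in 1 library. Reads were estimated as FPKM times depth times the gene length less 115 bases. Depth and these bases were fitted to the steps of low FPKM values, of which 67.4% in PB and 73.3% in PB-TERRA lay within 0.1 of a whole read (1548 and 1617 values of up to 40 reads), so the reads are estimates. Clopper-Pearson intervals of a gene's share of reads in PB-TERRA were turned into log2 ratios with the fitted depths. Of the genes past the filter, 95.8% had at least 100 reads over both libraries. Genes named were the 10 members, list genes past 1.2-fold, the gene of highest mean FPKM of each list, list genes under the filter, and those said to be named after their values were seen. Values of some single list genes are not reported here. Levels of expression were compared in 10 bins of mean FPKM. The computations were tested on simulated data. RefSeq promoters of GRCm38.p6 were used for sequences only, since the build differs from that of the table. Alternatives were other pseudocounts, scalings, filters, interval levels and a correction for gene length (50 bins). The files were read with Python 3.11.15, numpy 2.4.6, pandas 2.3.3 and scipy 1.17.1, and plotted with matplotlib 3.10.9.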

Additional observations from a re-analysis of the deposited data

How the results depend on the processing

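The log2 ratios of all 10 genes stayed inside their own 95% counting interval under each of the 6 alternatives (pseudocounts of 0.01 and 1 FPKM, equal sums of FPKM, median-of-ratios scaling, the length trend taken off, and estimated reads), and none reached 1.2-fold. Staying inside says little, since these alternatives move a ratio by little. Equal sums of FPKM added 0.038, and the length trend of these genes ran from -0.055 to 0.057. The ratio of estimated reads is the one on which the interval was built. The sign of Jak1 still changed with the length trend taken off. The number of the 10 whose interval lay off 0 was 1 with a 99% interval (Socs3) and 4 with intervals scaled to equal sums of FPKM, a setting chosen after seeing the data. With the length trend taken off it was 3, with Pim1 above 0 and Il6st and Socs3 below. Over all genes, the number past 1.2-fold was 5315 with no filter and 801 with a mean of at least 5 FPKM, against 2000 as reported. The number past 2-fold was 45 with a pseudocount of 1 FPKM, 513 with no filter and 17 with a mean of at least 5 FPKM, against 112. No paired analysis was possible because each condition has 1 library. The limit of these data is that spread between cultures is unknown. An interval off 0 states only that 0 fell outside the 95% range of counting error, which also happens for some genes without a difference. A ratio near 0 does not show that the conditions are alike.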
